A study of Mus musculus with 8 samples.

Results

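Genes of fatty acid synthesis were followed in SRC-2 KO and WT mouse hearts: Thrsp, Mid1ip1, Acaca, Acacb, Fasn, Acly, Scd1, Scd2, Elovl6 and Srebf1. These 10 genes, of 18194 on the array, were picked by name because the signals of Thrsp and Mid1ip1 in the same KO and WT hearts were already known to be higher in KO. Each gene was read from its brightest probeset over the 8 arrays, and the question was whether the enzymes of synthesis rise together with that pair. Whole hearts came from 4 SRC-2 KO mice, in which Ncoa2, the gene of the steroid receptor coactivator SRC-2, is disrupted in the germline and so in every cell type, and from 4 WT mice. All 8 were unstressed males of the strain C57B/6Jx129Sv, given by the labels as 10 to 12 weeks old and fed ad libitum, and each heart was hybridised to its own Affymetrix Mouse 430 2.0 array. A signal is the linear intensity of a probeset, and differences are KO minus WT means of log2 signal. A whole heart mixes cell types, so fewer cells of a type and less RNA per cell cannot be told apart.

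Fatty acid synthesis starts in the cytosol, where ATP citrate lyase (Acly) makes acetyl-CoA, acetyl-CoA carboxylase (Acaca, Acacb) makes malonyl-CoA and fatty acid synthase (Fasn) builds palmitate, which Elovl6 elongates and Scd1 and Scd2 desaturate. Srebf1 encodes a transcription factor of these enzymes in liver and fat, and Thrsp (Spot14) and Mid1ip1 (MIG12) encode related proteins, of which the Mid1ip1 product binds acetyl-CoA carboxylase and promotes its polymerisation. The heart mainly burns fatty acids, and malonyl-CoA from Acacb, the carboxylase of the outer mitochondrial membrane, is best known there as the inhibitor of carnitine palmitoyltransferase, the step that admits fatty acids to mitochondria.

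The promoter table of the RefSeq annotation of GRCm38.p6 held 8 of the 10 genes, all but Scd1 and Scd2, with 10 starts. The 250 bases before the start are shown for Thrsp and Mid1ip1, the 2 genes with higher signals in KO, and for Fasn and Acly, 2 enzymes that overlapped between genotypes. They lie at chr7:97417551-97417800 (minus strand, Thrsp), chrX:10717115-10717364 (plus strand, Mid1ip1), chr11:120824548-120824797 (minus strand, Fasn) and chr11:100528001-100528250 (minus strand, Acly), each directly upstream of the gene, and capitals mark CCAAT, the box of the factor NF-Y, on either strand.
Thrsp: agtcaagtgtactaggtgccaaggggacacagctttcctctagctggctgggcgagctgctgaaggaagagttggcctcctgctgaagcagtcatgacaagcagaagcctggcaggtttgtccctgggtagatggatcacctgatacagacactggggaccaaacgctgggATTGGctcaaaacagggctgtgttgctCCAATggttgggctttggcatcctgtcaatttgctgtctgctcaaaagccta
Mid1ip1: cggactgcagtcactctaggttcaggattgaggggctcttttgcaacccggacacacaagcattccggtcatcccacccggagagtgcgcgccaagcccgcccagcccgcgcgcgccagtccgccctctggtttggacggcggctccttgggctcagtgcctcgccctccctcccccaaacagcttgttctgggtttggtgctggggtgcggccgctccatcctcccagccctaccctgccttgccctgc
Fasn: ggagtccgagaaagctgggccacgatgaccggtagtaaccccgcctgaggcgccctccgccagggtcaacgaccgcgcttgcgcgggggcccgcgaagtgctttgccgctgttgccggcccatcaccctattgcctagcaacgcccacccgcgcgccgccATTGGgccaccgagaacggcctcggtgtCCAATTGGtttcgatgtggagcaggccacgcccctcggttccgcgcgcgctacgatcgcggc
Acly: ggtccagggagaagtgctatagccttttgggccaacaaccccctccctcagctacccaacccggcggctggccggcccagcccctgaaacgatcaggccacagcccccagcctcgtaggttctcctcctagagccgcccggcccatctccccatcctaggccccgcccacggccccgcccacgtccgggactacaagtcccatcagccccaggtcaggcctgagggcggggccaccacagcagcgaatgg
Thrsp held 2 of these boxes, with first bases 79 and 52 bases before the start, and Fasn held 3, at 90, 62 and 59 bases before it, the last 2 overlapping on opposite strands. Mid1ip1 and Acly held none. Acacb held 1, Srebf1 held 1 at 2 of its 3 starts, and Acaca and Elovl6 held none. Of 32851 promoters of this length, 33.8% held the box. GC boxes (GGGCGG, either strand, in 32.7% of promoters) stood in Acly 4 times and in Mid1ip1 2 times, and 2 times at each of 2 Srebf1 starts. No promoter of the 8 genes held an E-box (CACGTG, in 6.02%) or a sterol response element (TCACNCCAC, in 1.05%), each searched on either strand. Such matches describe letters in a window. The NF-Y box was present in 1 gene and absent in the other, both within the Spot14 pair and between Fasn and Acly.

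Ncoa2 itself had signals of 237.0, 259.6, 267.4 and 235.1 in KO hearts, against 1660, 2115, 1827 and 2134 in WT hearts, so each heart matched its label. The arrays had median signals of 75.6 to 83.2 in KO and 77.0 to 87.3 in WT. Over the genes above the median signal, their log2 signals correlated with each other at 0.954 to 0.984. Across all genes, the limma fit that draws each variance to a common prior called 4 of 18194 genes (0.022%) at an adjusted p under 0.05, 1 higher (0.0055%) and 3 lower (0.0165%) in KO. A fit whose prior variance follows the mean signal, called the trended fit here, called 68 (0.374%), 22 higher (0.121%) and 46 lower (0.253%). The p-values set each KO minus WT difference against the spread among hearts of the same genotype, after that spread was drawn toward the prior.

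Thrsp, which in liver responds to thyroid hormone and carbohydrate, had signals of 1939, 2283, 2556 and 3803 in KO hearts, against 1373, 1322, 1429 and 1234 in WT hearts. All 4 KO hearts lay above all 4 WT hearts, with KO heart 4 the highest. The means were 2645 ± 812 in KO and 1340 ± 82.9 in WT (SD, n = 4 each), a difference of 0.94 ± 0.21 (SE) on the log2 scale or 1.91-fold, and 5.32% of all genes had a larger difference upward. Another Thrsp probeset, dimmer, had signals of 487.5, 511.0, 731.7 and 1048 in KO and 311.1, 531.9, 471.1 and 402.8 in WT. There WT heart 2 lay above KO hearts 1 and 2, so the groups overlapped, with a difference of 0.65 ± 0.31 (SE from these hearts without the prior of the fit). The remaining Thrsp probeset was at 60.8 or lower in every heart. Averaging the log2 signals of all its probesets made the KO and WT hearts overlap for Thrsp. That mean gives the dimmest probeset equal weight, and its signals were 9.9, 15.7, 17.3 and 60.8 in KO and 10.7, 7.2, 24.0 and 8.7 in WT.

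Mid1ip1 had signals of 5698, 5697, 8821 and 6729 in KO hearts, against 4442, 4041, 4287 and 4084 in WT hearts, again with no overlap. KO heart 3 was the highest, and the 4 WT hearts lay close together. The means were 6736 ± 1473 in KO and 4213 ± 186.5 in WT (SD, n = 4 each), a difference of 0.65 ± 0.16 (SE) or 1.57-fold. Mid1ip1 has 1 probeset on this array. These values chose both genes and are given as a description only. By the same measure 3.12% of all genes had the 4 KO hearts above the 4 WT hearts, and 3.72% had them below. No member had a call in the common-variance fit (0 of 10, with Thrsp and Mid1ip1 at an unadjusted p under 0.05, as 10% of all genes were), and the trended fit called these 2, against the 0.374% above, from which nothing is read since the choice of genes used this contrast.

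**Figure D1:**
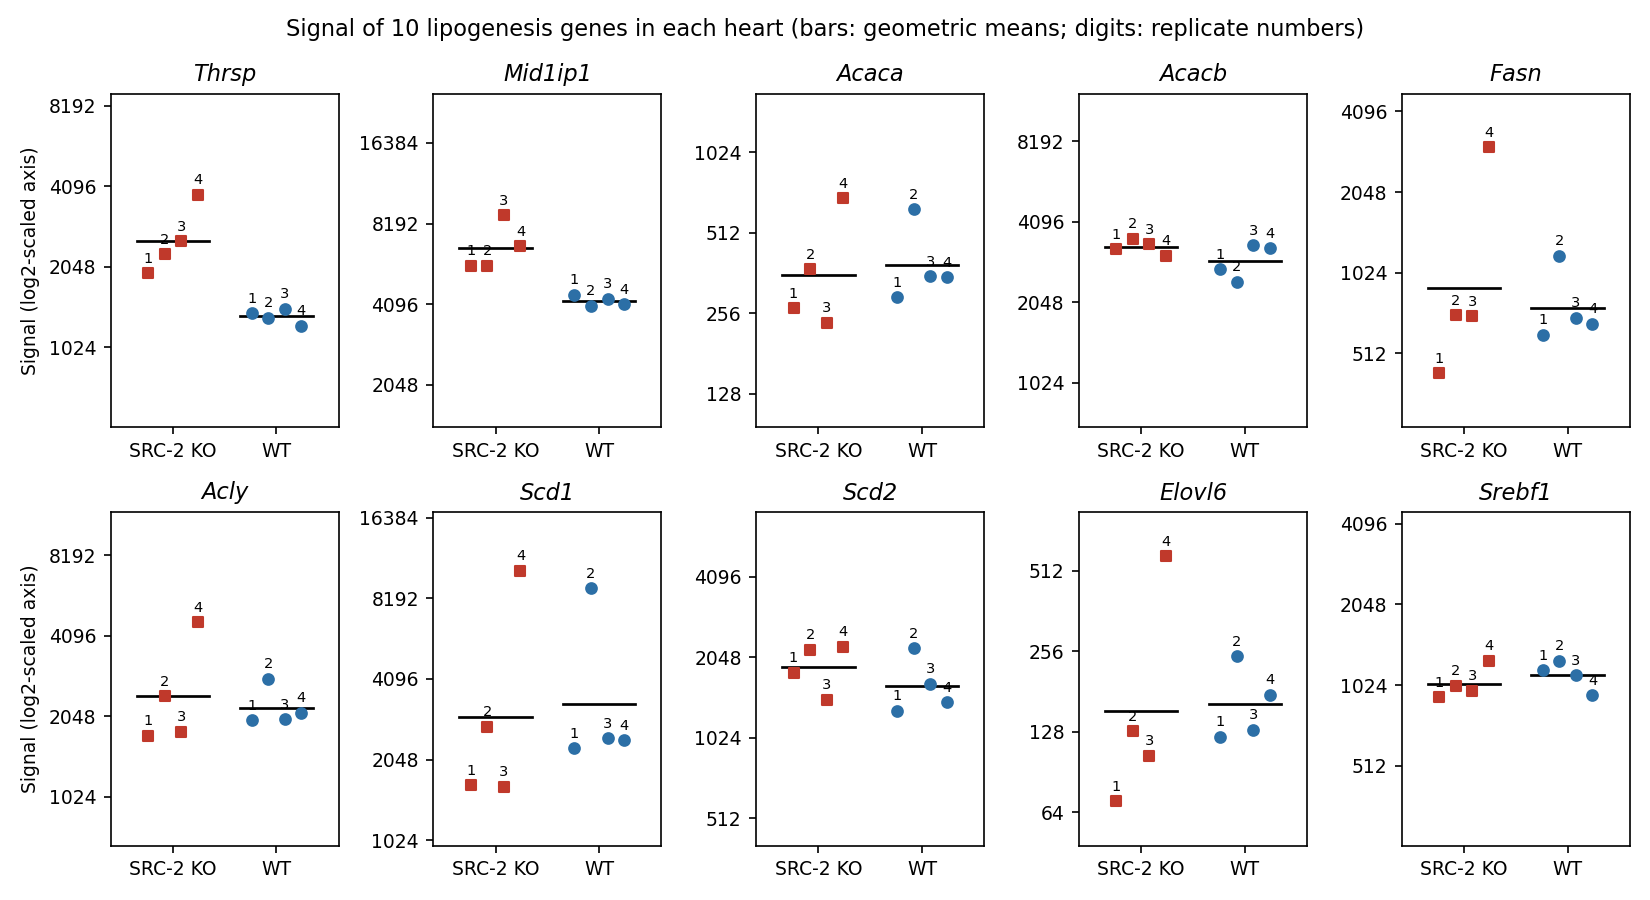
Signal of each of the 10 genes (vertical axis, log2-scaled, each panel spanning the same fold range) in the 4 SRC-2 KO hearts (red squares) and the 4 WT hearts (blue circles), with bars at the geometric means and digits for replicate numbers. Thrsp and Mid1ip1 separate the genotypes, and KO heart 4 and WT heart 2 stand highest within their genotypes for Fasn, Acly, Acaca, Scd1 and Elovl6.

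None of the 8 other genes separated the genotypes. Their differences ran between -0.17 (Scd1) and 0.25 (Fasn), 4 higher and 4 lower in KO, with a median of 0.03 beside -0.03 over all genes, of which 46.9% had a higher KO mean. The smallest adjusted p over all genes among the 8 was 0.536 in the trended fit and 0.683 in the common-variance fit, both for Acacb. With 4 hearts a side, the standard errors of Fasn, Scd1 and Elovl6 were 0.59, 0.72 and 0.64 on the log2 scale, so that differences as large as that of Mid1ip1 could not be resolved for them.

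Acly, which opens the pathway, had signals of 1736, 2438, 1792 and 4607 in KO hearts and 1979, 2831, 1997 and 2112 in WT hearts (difference 0.14 ± 0.33, SE). Acaca, the cytosolic carboxylase, had 267.2, 373.5, 236.0 and 690.3 in KO and 293.5, 628.0, 351.9 and 349.0 in WT (difference -0.12 ± 0.39). In both, 3 KO hearts lay within or below the WT range and KO heart 4 lay above it. Acacb, the mitochondrial carboxylase, had 3241, 3535, 3380 and 3064 in KO and 2726, 2444, 3341 and 3265 in WT (difference 0.18 ± 0.14). For Acacb, KO hearts 2 and 3 lay above all WT hearts while KO heart 4 was the lowest of the KO hearts.

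Fasn had signals of 430.1, 710.5, 704.5 and 3012 in KO hearts and 599.3, 1185, 694.8 and 661.0 in WT hearts. KO heart 4 alone raised the KO mean of 1214 ± 1206 over the WT mean of 785.1 ± 269.8 (SD, n = 4 each), and the log2 difference of 0.25 ± 0.59 (SE) became -0.33 without it. Elovl6 had 70.5, 128.9, 104.4 and 579.0 in KO and 123.0, 245.8, 130.6 and 176.2 in WT (difference -0.09 ± 0.64). The other 3 KO hearts thus lay low for Elovl6, KO hearts 1 and 3 below every WT heart. Of its further probesets, 1 was over a signal of 50 in every heart, with a difference of 0.35.

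Scd1 had signals of 1641, 2716, 1620 and 10381 in KO hearts and 2256, 8934, 2465 and 2417 in WT hearts, so that 1 heart of each genotype was several times above the others of that genotype (difference -0.17 ± 0.72). Scd2 had 1790, 2180, 1419 and 2237 in KO and 1292, 2212, 1628 and 1392 in WT (difference 0.23 ± 0.22), a range of less than 2-fold over all hearts. Scd2 was higher in KO at all 3 of its probesets, with differences of 0.23, 0.46 and 0.50, and each overlapped between genotypes. Averaging the 3 with equal weight put the 4 KO hearts above the 4 WT hearts. The third was dim, at 32.7, 104.0, 76.2 and 41.4 in KO and 40.4, 29.7, 45.2 and 50.2 in WT. Srebf1 had 923.4, 1020, 974.0 and 1260 in KO and 1162, 1263, 1117 and 939.5 in WT (difference -0.10 ± 0.15), and WT heart 4 lay below all but 1 KO heart.

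The 10 genes had 24 probesets in all. Of the 14 besides the brightest ones, 5 were over a signal of 50 in every heart, 9 had a higher KO mean and 0 separated the genotypes. The dim second Acaca probeset differed most, by 1.33 ± 1.02 (SE), and its signals reached the noise of the array.

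**Figure D2:**
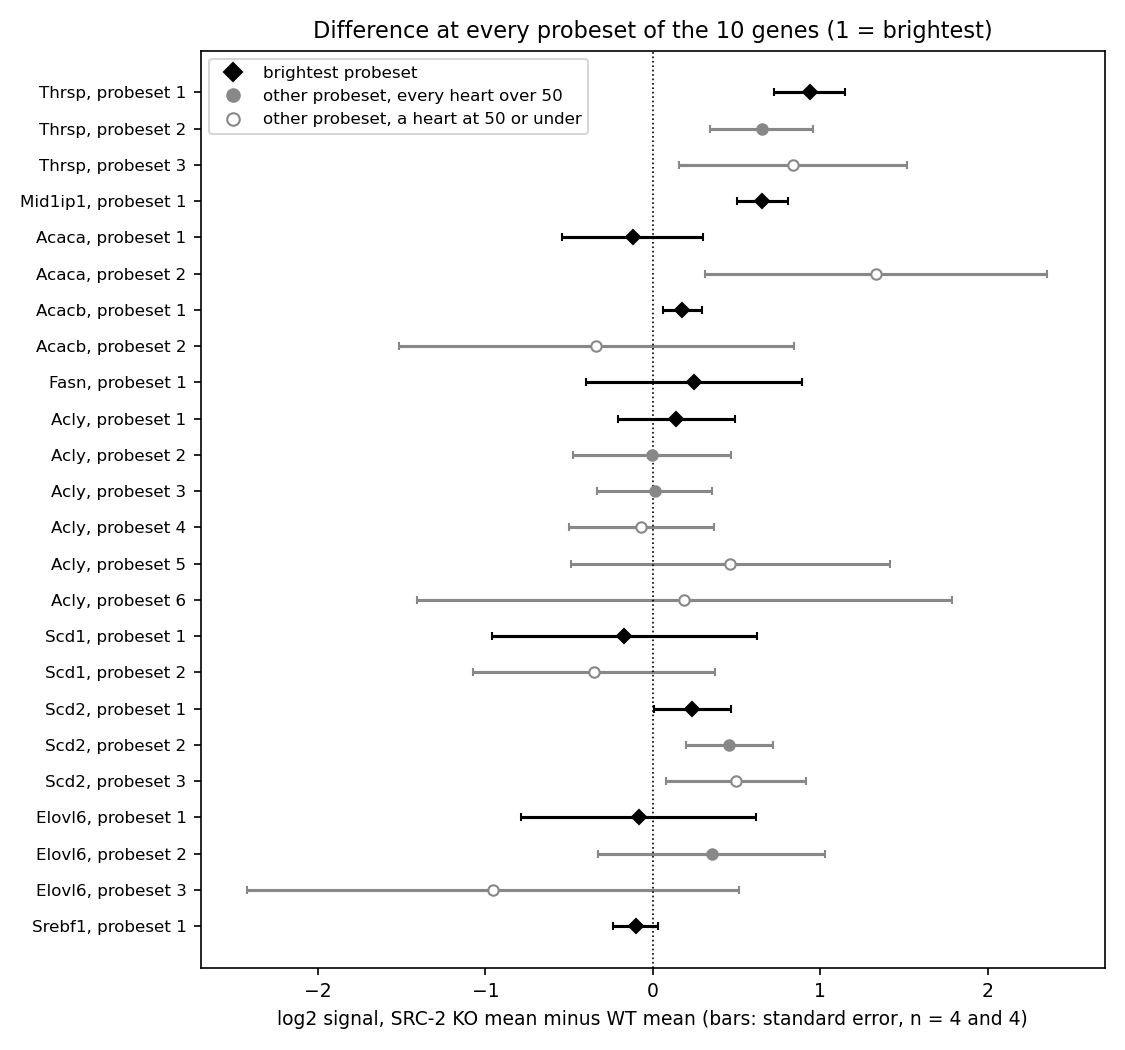
Difference in log2 signal, SRC-2 KO mean minus WT mean, at each of the 24 probesets of the 10 genes, with standard errors over 4 and 4 hearts (diamonds, brightest probeset of a gene; filled circles, others over a signal of 50 in every heart; open circles, the rest). Thrsp lies right of 0 at all 3 probesets, whereas the bars of most enzymes cross 0.

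Of the 8 genes besides Thrsp and Mid1ip1, 7 had KO heart 4 as the highest KO heart and WT heart 2 as the highest WT heart, and Acacb was the exception. In KO heart 4 the gap was widest for Fasn, Acly, Acaca, Scd1 and Elovl6, 5 enzymes picked out after the values were seen. Against the median of the other KO hearts, KO heart 4 had 6.33 times the Scd1 signal, 5.54 times that of Elovl6, 4.28 times that of Fasn, 2.58 times that of Acaca and 2.57 times that of Acly. For Thrsp and Mid1ip1 that ratio was 1.67 and 1.18. WT heart 2 had 3.7 times the median Scd1 signal of the other WT hearts, 1.88 times that of Elovl6, 1.8 times that of Acaca, 1.79 times that of Fasn and 1.42 times that of Acly, but 0.963 times that of Thrsp and 0.943 times that of Mid1ip1. Acacb went the other way, with 0.907 times the median of the other KO hearts in KO heart 4 and 0.749 times that of the other WT hearts in WT heart 2, its lowest WT heart. Scd2 gave 1.25 and 1.59, and Srebf1 1.29 and 1.13, in KO heart 4 and WT heart 2. WT heart 2 was thus the highest WT heart for these 5 enzymes and the lowest for Acacb, and it was below the median of the other WT hearts for the Spot14 pair.

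Over the 8 hearts, the log2 signal of Fasn was set against those of the other 9 genes and of Adipoq, the fat cell hormone adiponectin, 10 relations in all, with exact two-sided permutation p-values adjusted over the 10. Fasn was taken as the reference after the values were seen. The p-values therefore describe these 8 hearts and are not a test of relations fixed in advance. Acly and Fasn correlated at Pearson r = 0.962 (n = 8, exact permutation p = 0.00161, adjusted 0.008) and Spearman rho = 0.833 (p = 0.0154, adjusted 0.0769). Elovl6 gave r = 0.963 (exact p = 0.00203, adjusted 0.008) and rho = 0.714 (p = 0.0576, adjusted 0.096), and Scd1 gave r = 0.896 (exact p = 0.0027, adjusted 0.008) and rho = 0.762 (p = 0.0368, adjusted 0.0917). Acaca gave r = 0.862 (exact p = 0.00404, adjusted 0.00809) and rho = 0.762, and Srebf1 gave r = 0.732 (exact p = 0.0122, adjusted 0.0203) and rho = 0.667 (p = 0.0831, adjusted 0.119). Adipoq gave r = 0.912 (exact p = 0.0032, adjusted 0.008) and rho = 0.881 (p = 0.00724, adjusted 0.0724). No rank correlation passed 0.05 after adjustment.

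Over both genotypes pooled, Thrsp gave a lower r with Fasn, 0.563 (exact permutation p = 0.138, adjusted 0.173), and rho = 0.405 (p = 0.327, adjusted 0.409). Mid1ip1 gave r = 0.193 (exact p = 0.655, adjusted 0.655) and rho = 0.071 (p = 0.882), Scd2 gave r = 0.585 (exact p = 0.118, adjusted 0.168) and rho = 0.738 (p = 0.0458, adjusted 0.0917), and Acacb gave r = -0.284 (exact p = 0.489, adjusted 0.544) and rho = -0.024 (p = 0.977). Without KO heart 4 and WT heart 2, the 2 hearts farthest from the Fasn median, r over the 6 left was 0.753 for Elovl6, 0.617 for Adipoq, 0.582 for Acly, 0.546 for Scd1, 0.395 for Acaca, 0.343 for Srebf1, 0.313 for Acacb, 0.036 for Thrsp, 0.049 for Mid1ip1 and -0.073 for Scd2. The high values therefore rested in large part on those 2 hearts. The difference between r values of different genes was not tested. Each r pools the genotypes, so for Thrsp and Mid1ip1 it mixes their KO to WT difference with differences between hearts of 1 genotype. Among KO hearts, Thrsp and Fasn were both lowest in KO heart 1 and highest in KO heart 4. Among WT hearts, Thrsp was highest in WT heart 3 and Fasn in WT heart 2. Whether Thrsp follows Fasn within a genotype was not tested.

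**Figure D3:**
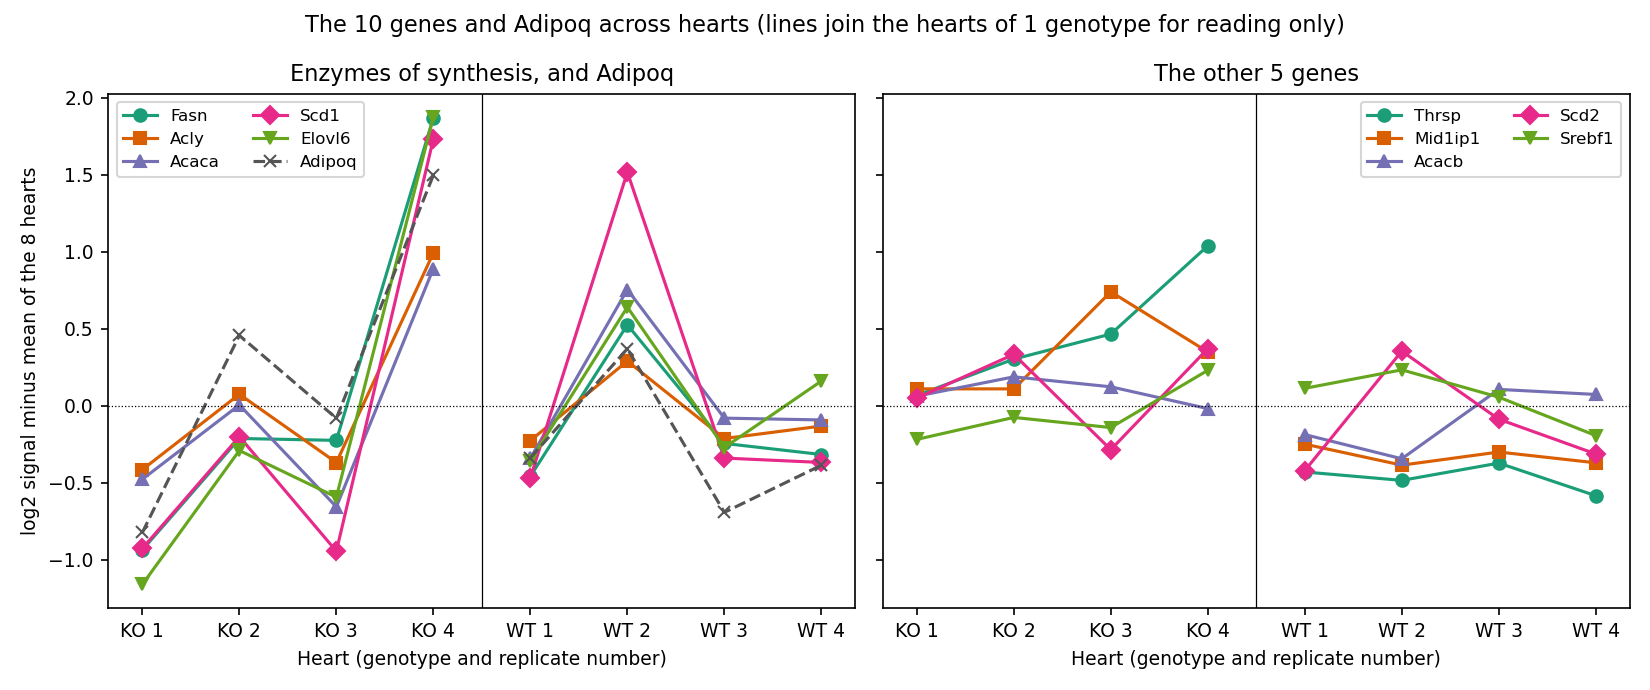
log2 signal of each gene minus its mean over the 8 hearts (vertical axis), by heart, SRC-2 KO hearts on the left of each panel and WT hearts on the right, for 5 enzymes and Adipoq (left panel) and the other 5 genes (right panel). These 5 enzymes and Adipoq are highest of their genotype in KO heart 4 and WT heart 2, whereas Thrsp and Mid1ip1 lie above 0 in every KO heart and below 0 in every WT heart.

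Adipoq had signals of 282.5, 686.0, 472.5 and 1412 in KO hearts and 395.3, 646.1, 309.2 and 382.4 in WT hearts, highest in the same 2 hearts as those 5 enzymes. Fat cells also express enzymes of synthesis strongly, so the whole adipocyte list is given. Of its 12 markers 10 were measured, all but Plin1 and Cfd, with 6 higher and 4 lower in KO. Their median was 0.15, with 0 calls in either limma fit (0 at an unadjusted p under 0.05). Their summed signal was 42180 to 52400 in KO and 46300 to 50970 in WT. The heart with the highest signal differed between markers. Among KO hearts, 4 of the 10 (Adipoq, Cidec, Cidea and Ucp1) were highest in KO heart 4. Among WT hearts, 4 (Adipoq, Lep, Fabp4 and Pck1) were highest in WT heart 2, and 1, Adipoq, was both. For dim markers such as Lep and Cidec the highest heart is uncertain. The mean log2 level of the list was 8.18, 8.55, 8.35 and 9.0 in KO hearts and 8.36, 8.40, 8.11 and 8.32 in WT hearts, so KO heart 4 stood highest. Fabp4, which endothelial cells also express, made up most of that sum. No marker was listed at 0. Lep and Cidec were at or under a signal of 100.2 in all hearts, Pnpla2, Lipe, Retn, Pck1 and Cidea gave differences of 0.10, -0.33, 0.69, -0.77 and -0.02, and Ucp1, the uncoupling protein of brown fat, had 15.3, 38.6, 6.0 and 672.2 in KO and 112.2, 9.96, 29.1 and 12.1 in WT. Ucp1 was thus under a signal of 50 in every heart but KO heart 4 and WT heart 1, a pattern picked out after the values were seen. The part of fat cells in the enzyme values was not tested.

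With KO heart 4 and WT heart 2 left out, a choice made after seeing the data, Thrsp and Mid1ip1 differed by 0.74 and 0.63 on the log2 scale, and since their hearts did not overlap, no choice of hearts could turn these signs. The other differences were then -0.12 for Fasn, -0.05 for Acly, -0.20 for Acaca, -0.30 for Scd1, -0.53 for Elovl6 and -0.14 for Srebf1, with Acacb and Scd2 above 0 at 0.13 and 0.31, and the median of the 8 genes was -0.13. Leaving out KO heart 4 alone moved that median to -0.27. Therefore, the sign of the median of these 8 genes depended on which hearts were kept.

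Marker signals of other cell types were also read, with hepatocyte and skeletal muscle lists beside those of heart cells. All 12 atrial myocyte markers were lower in KO, 3 of them (Stard10, Tbx5 and Nr2f2) called in the trended fit, with summed signals of 22500 to 202900 in KO and 164700 to 272300 in WT. The mean log2 level of these markers was 11.43, 10.39, 9.32 and 10.34 in KO hearts and 11.64, 12.18, 11.98 and 11.56 in WT hearts. Mid1ip1 signals in the same 4 KO hearts, in the same order, were 5698, 5697, 8821 and 6729. A relation between the atrial level and Mid1ip1 was not tested. Ventricular myocyte markers were higher in KO for 9 of 10, with sums of 456200 to 591500 in KO and 377100 to 526800 in WT, but 5 of 10 after quantile normalization. Hepatocyte markers, of which 9 of 10 were measured, were lower in KO for 8, with sums of 2122 to 7496 in KO and 4818 to 20850 in WT. Endothelial, fibroblast and macrophage markers were lower in KO for 10 of 10 each, with sums of 13140 to 17850, 61940 to 95440 and 15660 to 19320 in KO, against 16080 to 19940, 91850 to 150200 and 20240 to 25890 in WT. Skeletal muscle markers were lower for 6 of 10, with sums of 74010 to 86330 in KO and 65720 to 95910 in WT. No part of these shifts in the Thrsp or Mid1ip1 difference was tested.

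None of the transcription factors of lipogenesis and their regulators was called. Of 15 listed, 14 were measured, 5 higher and 9 lower in KO, with a median of -0.10, and 1 had an unadjusted p under 0.05 in the trended limma fit, where 12.6% of all genes did. Mbtps1, the protease that cleaves the SREBP proteins, was at 1345, 1410, 1409 and 1510 in KO hearts and 1576, 1835, 1620 and 1585 in WT hearts, the single regulator whose groups did not overlap (difference -0.22, adjusted p = 0.326 in the trended limma fit). Mbtps2, the next protease, gave a difference of 0.25. Srebf2, the SREBP of sterol synthesis, gave a difference of -0.68, its escort Scap -0.13 and its retention factors Insig1 and Insig2 -0.17 and 0.10. Mlxipl (ChREBP), the glucose-responsive factor, gave -0.24, its partner Mlx 0.06, the liver X receptor Nr1h3 -0.30, and the E-box factors Usf1 and Usf2 -0.30 and 0.16. The thyroid hormone receptors Thra and Thrb gave -0.07 and 0.36, the signal of Thrb being dim, and their partner Rxra gave -0.05. Median centring of the arrays left 8 of the 14 lower in KO, as did quantile normalization.

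Around malonyl-CoA, 10 of 11 listed genes were measured, 4 higher and 6 lower in KO with a median of -0.06 (0.003 after median centring), and 0 were called (4 at an unadjusted p under 0.05 in either limma fit). Prkag2, a regulatory subunit of AMP-activated kinase, which phosphorylates and inhibits acetyl-CoA carboxylase, had signals of 450.7, 573.8, 429.1 and 600.1 in KO hearts and 792.4, 835.9, 795.5 and 814.9 in WT hearts (difference -0.67, adjusted p = 0.0568 in the trended fit of limma). Mlycd, the decarboxylase that removes malonyl-CoA, had 2374, 2589, 2698 and 2319 in KO and 1799, 1945, 2034 and 2083 in WT (difference 0.34, adjusted p = 0.122 in the trended fit). In both genes the hearts of the genotypes did not overlap. Prkab2, another subunit of the kinase, was also separated (0.23), and Cpt1a, a transferase that malonyl-CoA inhibits, gave -0.27. Cpt1b was not among the measured genes of this list. The catalytic subunits Prkaa1 and Prkaa2 gave -0.27 and 0.09, and the other regulatory subunits Prkab1 and Prkag1 gave -0.12 and -0.0008. Brca1, which in human cells binds phosphorylated acetyl-CoA carboxylase, gave -0.77 at a dim signal, the difference farthest from 0 in the list, and Mid1, the protein for which Mid1ip1 is named, was dim and gave 0.54 ± 1.14 (SE).

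The list around the supply of cytosolic acetyl-CoA and NADPH, which also holds mitochondrial Acss1, had 8 of 10 measured genes higher in KO. Its median was 0.22 (0.11 after quantile normalization) beside -0.01 for all genes above the median signal. In this list 0 were called (2 at an unadjusted p under 0.05 in the trended limma fit). Acss1, a mitochondrial acetyl-CoA synthetase, had 9098, 8731, 10816 and 8676 in KO hearts and 7285, 6076, 6401 and 6857 in WT hearts (difference 0.48, adjusted p = 0.0568 in the trended limma fit). Its groups did not overlap, nor did those of Idh1, a cytosolic source of NADPH (0.21). Cs, citrate synthase, gave 0.24, and the 2 genes lower in KO, Slc25a1 and Acss2, gave -0.19 and -0.10. Enzymes of mitochondrial fatty acid synthesis, which builds lipoate precursors apart from the cytosolic route, were higher for 7 of 8 with a median of 0.20 and 0 calls (3 at an unadjusted p under 0.05 in the trended limma fit). Oxsm, its ketoacyl synthase, had 1720, 1770, 1948 and 1805 in KO and 1256, 1390, 1421 and 1627 in WT (difference 0.35, adjusted p = 0.151 in the trended fit), and Acsf3, the malonyl-CoA synthetase of mitochondria, and Mcat gave 0.46 and 0.40. Most genes of both lists thus had higher KO means, with no call.

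Other elongases, desaturases and their partners were higher in KO for 4 and lower for 13 of 17, with a median of -0.12 (8 higher after median centring, 7 after quantile normalization) and 0 calls (5 at an unadjusted p under 0.05 in the trended limma fit). Cyb5a, the cytochrome b5 that gives electrons to desaturases, had 12466, 11706, 11310 and 10560 in KO hearts and 9202, 9308, 9729 and 6486 in WT hearts (difference 0.42, adjusted p = 0.169 in the trended limma fit), and Fads3, a desaturase relative, was separated too (0.40). Elovl2 lay lower in KO but at signals under 20 in all KO hearts. Triglyceride synthesis counted 7 higher and 5 lower of 12, with a median of 0.04, and Dgat1, Lpin1 and Agpat3 gave 0.31, -0.28 and 0.26. Cholesterol synthesis counted 8 higher and 6 lower of 14, with a median of 0.05, and Cyp51, Pmvk and Fdft1 gave -0.88, 0.48 and 0.31. Neither list had a call, with 1 and 4 genes at an unadjusted p under 0.05 in the trended limma fit.

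Thrsp is named for thyroid hormone, and 10 of 13 listed thyroid-responsive heart genes were measured, 7 higher and 3 lower in KO with a median of 0.07 (5 higher after quantile normalization). Ucp3, an uncoupling protein of muscle mitochondria, fell to 507.1, 731.3, 604.7 and 484.3 in KO hearts, against 1135, 1145, 1094 and 1502 in WT hearts (difference -1.07, adjusted p = 0.0154 in the trended limma fit and 0.22 in the common-variance fit). Dio2, the deiodinase that makes active thyroid hormone, gave -1.15 with no overlap (adjusted p = 0.121 in the trended fit) and Pln gave 0.23. Of the 10 clock output genes, listed because lipogenic genes cycle over the day, 8 were higher in KO with a median of 0.15. Tef, a clock-controlled factor, rose in the trended fit with 1839, 1495, 2035 and 1566 in KO hearts and 1162, 1002, 1250 and 944.2 in WT hearts (difference 0.67, adjusted p = 0.0441 in the trended limma fit and 0.332 in the common-variance fit). Dbp, its relative, had 1441, 1384, 2252 and 628.7 in KO and 540.8, 443.0, 525.7 and 391.0 in WT (difference 1.46, adjusted p = 0.0568 in the trended fit), also with no overlap. The hour at which hearts were taken is not given in the sources used here.

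**Figure D4:**
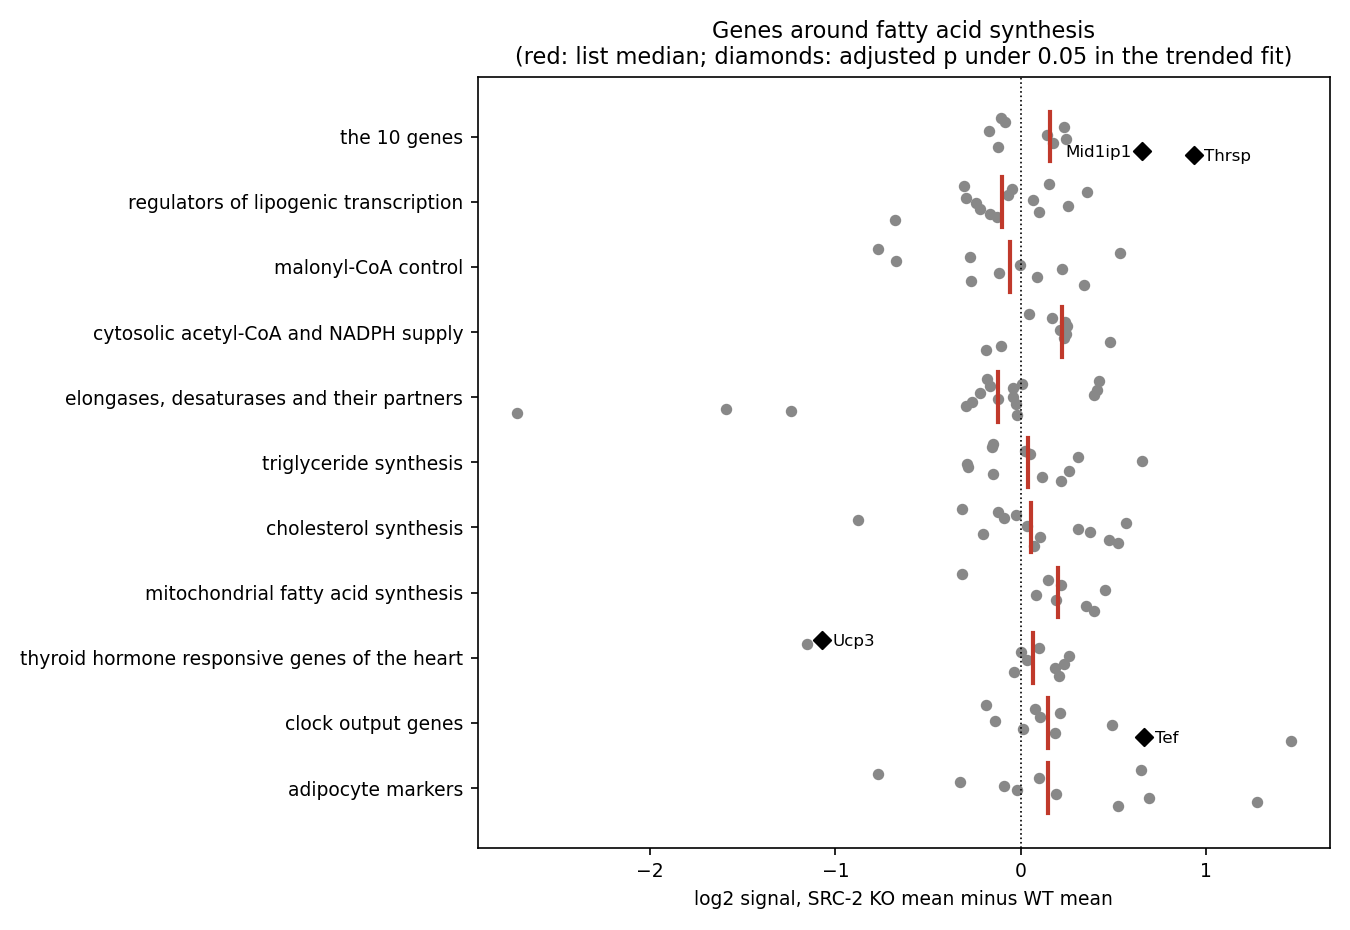
Difference in log2 signal, SRC-2 KO mean minus WT mean (horizontal axis), for every measured gene of 11 lists (1 point a gene, grey), with the median of each list in red and black diamonds for genes with an adjusted p under 0.05 in the trended fit. Thrsp and Mid1ip1 lie apart from the other 8 of the 10 genes, and the diamonds in the other lists are Tef, right of 0, and Ucp3, left of it.

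Among 9096 genes above the median signal, those whose log2 signal followed Thrsp most closely over the 8 hearts by Pearson r were Ubr3 (0.965), Malsu1 (0.943), Arl3 (0.943), Snx13 (0.941) and Fubp1 (0.939). For Mid1ip1 they were 4930453N24Rik (0.973), Plekhh1 (0.972), Irx2 (0.968), Decr1 (0.964) and Egln3 (0.959), where Decr1 is a mitochondrial reductase of unsaturated fatty acid oxidation and Egln3 an oxygen-sensing prolyl hydroxylase. These genes were ranked by likeness to a pair chosen for higher KO signals, so their own higher KO signals follow from the ranking. Irx2, an Iroquois transcription factor, had signals of 353.4, 346.4, 662.0 and 440.2 in KO and 204.6, 187.3, 143.4 and 191.6 in WT, highest in KO heart 3 as Mid1ip1 was. None of the other genes of synthesis was among these 10. Nothing is read from this, since the ranking favours genes with higher KO signals and left out Elovl6. For Fasn, chosen after the values were seen, the closest ranked genes were Acly (0.962), Cyp4b1 (0.922), Capn1 (0.916), Adipoq (0.912) and Tkt (0.91). Elovl6 gave r = 0.963 with Fasn but was not ranked, as its mean log2 signal of 7.301 was under the median of 7.675. Tkt, transketolase of the pentose phosphate pathway, had 2683, 2896, 2584 and 8710 in KO and 2560, 4449, 2415 and 4000 in WT. These r values describe 8 hearts and were ranked over many genes.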

How the data were processed

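RNA from 4 SRC-2 KO and 4 WT whole hearts was labelled and hybridised to Affymetrix Mouse 430 2.0 arrays by the authors, 1 heart an array, with groups taken from the labels. Affymetrix Expression Console, Partek and RMA are named in the submitters' notes, whereas the deposited table holds intensity values on a linear scale, each array scaled to a mean of 500 after trimming 2% at each end. The RMA values of the methods were thus not those used here, and the deposited values were converted to log2 without a floor. Of 45101 probesets, 34958 had 1 gene symbol in the platform annotation, 932 several and 9211 were not listed. The probeset with the highest mean log2 signal stood for each of 18194 genes.

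KO and WT were compared in R 4.3.3 with limma 3.58.1 (lmFit and eBayes, two-sided, Benjamini-Hochberg over all genes, threshold 0.05), without a trend as in the variance model of the methods and, as an alternative, with one. Correlations used SciPy 1.17.1, and promoters came from RefSeq. The fits were tested on simulated data. Array number limits the precision. Alternatives were the probeset rule, a filter on dim genes, a floor of 50, median centring, quantile normalization, the replicate number as a block, and leaving out each heart. Named genes were the 10, Ncoa2, up to 3 genes a list with the smallest trended p, the regulator, malonyl-CoA and adipocyte lists in full, and the 5 most like Thrsp and Mid1ip1. Slc25a1 and Acss2 were named besides, as the lower genes of their list. The lists held 212 entries, 196 of them measured, and they and the 10 genes were chosen with earlier results of these data known.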

Additional observations from a re-analysis of the deposited data

Results flagged for a closer look

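Within each genotype, the log2 signals of the 10 genes, Adipoq and Ncoa2 were checked for a heart apart from the other 3, which made 24 groups of 4 hearts. Scd1 in WT heart 2 stood apart, at a signal of 8934 against 2465 in the nearest WT heart, a gap that took up 0.936 of the range of the 4 WT hearts, more than the Dixon test allows at the 95% level. Chance flags about 1 in 20 such groups.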

How the results depend on the processing

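Of the 18194 genes, 1 was higher and 3 were lower in KO at an adjusted p under 0.05 in the common-variance fit of limma. The trended fit called 22 higher and 46 lower, the mean of all probesets 0 and 1, the filter on dim genes 4 and 18, and the fit with the replicate number as a block 0 and 0. Setting signals under 50 to 50 and quantile normalization each called 0 higher. Leaving out 1 heart gave 0 to 1 higher and 1 to 2 lower, and in the trended fit, without KO hearts 1 to 4 in turn, 10, 10, 5 and 104 higher and 44, 31, 26 and 216 lower, and without WT hearts 1 to 4 in turn, 6, 2, 4 and 4 higher and 15, 3, 8 and 18 lower. Leaving out KO heart 4 and WT heart 2, chosen after seeing the data, called 1 higher and 1 lower, and in the trended fit 51 higher and 108 lower. Of the 10 genes, 0 were called, against 2 in the trended fit (Thrsp and Mid1ip1), 1 in the trended fit without both hearts (Thrsp), 0 in each common-variance fit without 1 heart and 0 to 2 in the trended fits without 1 heart (2 without KO heart 1 or KO heart 4, 0 otherwise). The median of the 8 other genes lay between -0.27 and 0.22 when 1 heart was left out. With the mean of all probesets, the genes with separated hearts were Mid1ip1 and Scd2 in place of Thrsp and Mid1ip1. That mean gives dim probesets of Thrsp and Scd2 the same weight as bright ones, so nothing is read from this exchange. The alternatives that leave signals as they are or drop hearts could not undo a separation. Same-numbered KO and WT hearts deviated together with r of 0.064, -0.08, -0.019 and 0.108, and 2 of the 4 numbers were best partners. With so few numbers this check cannot decide whether they pair the hearts. The methods of the paper name age-matched littermates, and all fits but the one with the block treated the hearts as unpaired. Elovl6 could not be fitted under the filter on dim genes. The cause of these changes was not tested.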
